A study of Salmo salar with 18 samples.

Results

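Gill expression at 6 h and at 1 h after a short hypoxia stress was compared in Atlantic salmon fed the LAN4 diet. The comparison rests on 6 of the 18 libraries of the series, chosen by the diet and sampling time in their labels. The groups of LAN4-fed fish were at 6 h post-stress, at 1 h post-stress and at pre-stress, and fish fed the control diet (CD) at 6 h and at 1 h post-stress were set beside them, with 3 fish and 1 library per fish in each group. LAN4 is CD with a hydrolysed product of the yeast Debaryomyces hansenii, and the fish were pre-smolts of a commercial breeding stock. They had eaten their diet for 7 weeks and through 1 week of acclimatization. The stress was 1 min out of the water in a net, which every 6 h and 1 h fish received and the pre-stress fish did not. The series holds no unstressed fish sampled at the later times. Time since the stress therefore cannot be told apart from time of day at sampling.

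Genes on chromosomes 1 to 6, 9 to 16, 19 and 20 were used, which is 42615 of 69389 genes (61.4%), because at least 1 of the 6 h libraries has no counts, or counts for only part of the genes, on each of the other chromosomes. On these chromosomes the LAN4 6 h libraries held 11983436, 14644411 and 13548489 counted fragments and the LAN4 1 h libraries 12195429, 11244727 and 11670391. The deposited headers place every 1 h library on lane 1 and every 6 h and pre-stress library on lane 3, so sampling time and lane cannot be told apart in any 6 h against 1 h value. The study spread the fish of each diet over as many tanks as it had sampling times, and does not say which tank each fish came from. Fish of a group may have shared a tank. Tank would then go with sampling time as lane does, and the p-values would measure only the spread between those fish. Lists of gene names cover a minority of genes, since 6621 of the 42615 genes carried a symbol other than a LOC number, or a synonym beside one.

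The gill takes up oxygen, regulates ions and is lined by immune cells, so its RNA is that of a mixed tissue. Immediate early genes are those whose RNA is made within minutes of a stimulus without new protein synthesis. Many of them encode transcription factors or RNA-binding proteins whose own transcripts are short-lived. In fish, stress hormones such as cortisol act through the glucocorticoid receptor and change transcription over the following hours. In whole gill, fewer cells of a type and less RNA per cell cannot be told apart.

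Between 1 h and 6 h, 996 genes were higher at 6 h and 850 were lower, out of 23153 tested (edgeR quasi-likelihood test, Benjamini-Hochberg adjusted p under 0.05). This is 7.97% of the genes, 4.3% higher and 3.67% lower, and 5619 genes had an unadjusted p under 0.05. Most changes were small. The median log2 fold change of 6 h over 1 h was 0.60 among the genes called higher and -0.64 among those called lower, and the median over all genes was -0.01. At least a 2-fold change was seen in 164 of the higher and 161 of the lower genes, and at least a 4-fold change in 61 and 25 of them. The 3 fish of 6 h and the 3 fish of 1 h did not overlap in 1823 of the 1846 called genes. Over all genes tested, 14.9% were without overlap and higher and 14.7% without overlap and lower. Called genes lay on all 16 chromosomes, with 3.31% to 5.6% of the genes of a chromosome higher and 2.36% to 4.35% lower.

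**Figure D1:**
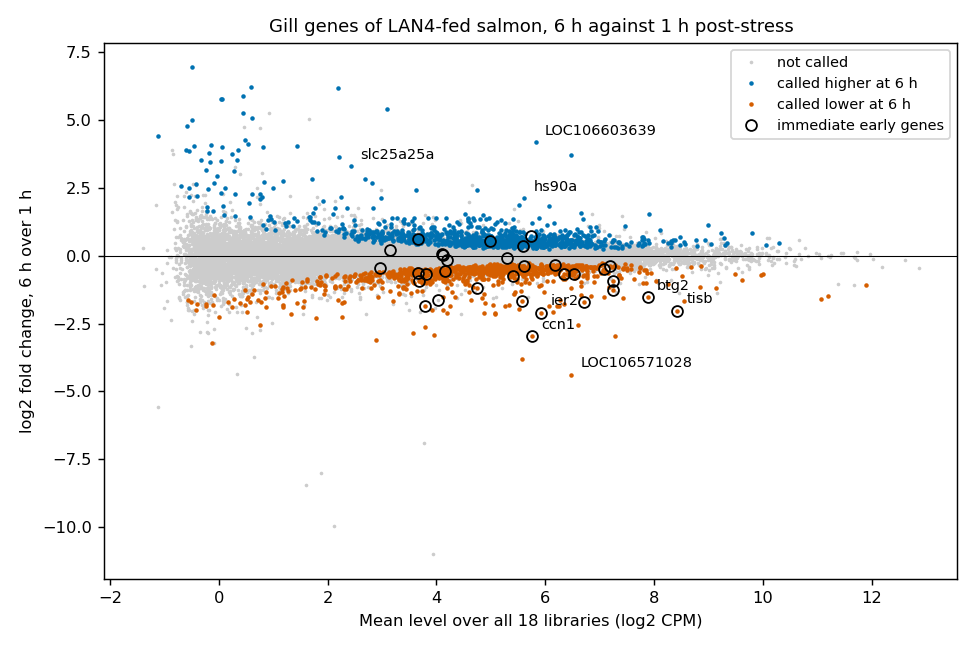
Each point is 1 of the 23153 genes tested, with the mean level over the 18 libraries (log2 CPM) on the horizontal axis and the log2 fold change of 6 h over 1 h in LAN4 gills on the vertical axis. Blue points are the 996 genes called higher, orange points the 850 called lower, and black rings the 32 immediate early genes tested, which lie mostly below 0.

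The number of calls rested on individual fish. It was 646 without LAN4 6 h replicate 2, 1192 without LAN4 6 h replicate 3, 868 without LAN4 1 h replicate 2 and 882 without LAN4 1 h replicate 3. In a fit of only the 6 libraries compared, 1213 genes were called. Of the called genes described here, zfp36l1a, plk2b, areg, spaca6, il8, vldlr, egln3, elovl6, tsr1, utp18, ndufb5, mcm2, mcm5, mcm6, rrm2, tfr1a, csf3r, LOC106599082, ENSSSAG00000092807 and hsp7c (ENSSSAG00000067344) missed the threshold in it. Highly expressed genes were called more often. Above a mean log2 CPM of 6, 6.26% of 3481 genes were higher and 5.34% lower, with a median standard error of 0.12 on the log2 scale. Below a mean log2 CPM of 0, 2.02% of 1141 genes were higher and 0.789% lower, with a median standard error of 0.58.

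Gene length moved with the change. Genes called higher had a median summed exon length of 4615.5 bases and genes called lower 3450 bases, against 3667 bases over all genes tested. Among the 4631 genes with the shortest exons the median log2 fold change was -0.1, and among the 4630 with the longest it was 0.05. In CD gills the same length classes had medians of 0.12 and -0.06. Libraries of 1 group also differed in this respect. The rank correlation of a gene's deviation with its length, across genes, was 0.11, 0.10 and -0.13 in the LAN4 6 h libraries and -0.01, -0.09 and -0.35 in the LAN4 1 h libraries. With this trend removed from each library, an alternative added after the data were seen, 1081 genes were higher and 929 lower, and 1727 of the 1846 calls were kept.

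All lists were chosen with earlier results of these data known, and among them the immediate early genes had the largest share of calls. That share describes the genes and is not a test of them. Of the 32 members tested, 18 (56.2%) were lower at 6 h, beside 3.67% of all genes, 1 was higher and 13 did not pass the test. The median log2 change of the 32 was -0.64. In all 18 the 3 fish of 6 h lay below the 3 fish of 1 h, where 98.8% of all called genes were without overlap. The log2 fold changes of the 18 ran between -2.95 and -0.37, and 9 fell by more than 2-fold. The count was 11 without LAN4 6 h replicate 2 and 10 without LAN4 1 h replicate 3, and 8 members were lower by a test against a fold of 1.5.

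Ccn1 (ENSSSAG00000051615, chromosome 10, bases 42959730 to 42962984), which encodes a matrix-associated signalling protein made quickly after growth factor or mechanical stimuli, had the largest fall among these genes. Its normalised level, in CPM (counts scaled to a common library size), was 18.1, 20.7 and 17.1 in the LAN4 6 h fish, against 134, 134 and 164 in the LAN4 1 h fish. The groups were far apart, with a mean of 18.6 ± 1.87 CPM at 6 h and 144 ± 17.5 CPM at 1 h (SD, n = 3 each) and a log2 fold change of -2.95 ± 0.19 (SE; edgeR adjusted p = 9.74e-08). The pre-stress fish had 15.4, 14.1 and 16.4 CPM. Its relative ctgf had 134, 157 and 141 CPM at 6 h, against 298, 236 and 294 CPM at 1 h, and the log2 fold change was -0.94 (edgeR adjusted p = 0.00588).

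A group of 3 genes that act on RNA or on cell division fell with little spread at 6 h. Tisb (ENSSSAG00000005611, chromosome 9, bases 117250019 to 117252550), of the Zfp36 family of proteins that speed the decay of AU-rich transcripts, had 186, 182 and 186 CPM at 6 h, against 692, 765 and 792 CPM at 1 h. That is a fall to 185 ± 2.04 CPM at 6 h, against 750 ± 51.5 CPM at 1 h (SD, n = 3 each), with a log2 fold change of -2.02 (edgeR adjusted p = 1.84e-07). Btg2 (ENSSSAG00000081228), an antiproliferative factor, had 149, 151 and 154 CPM at 6 h, against 389, 427 and 483 CPM at 1 h, a log2 fold change of -1.52 (edgeR adjusted p = 2.42e-07). The 6 h values of btg2 lay within its pre-stress range of 144 to 164 CPM, while the tisb values lay above its pre-stress range of 136 to 159 CPM. A second Zfp36 relative, zfp36l1a, changed less, with a log2 fold change of -0.37 and an edgeR adjusted p of 0.0366, and its call was lost in each of the 6 fits that left out 1 LAN4 6 h or 1 h library (highest adjusted p = 0.138).

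Transcription factors of the early response fell as well. Ier2 (ENSSSAG00000058660), a nuclear protein that growth factors induce, had 31.9, 34.2 and 30.6 CPM at 6 h, against 121, 147 and 144 CPM at 1 h, and its duplicate ier2a had 30.9, 31.1 and 29.0 CPM at 6 h, against 78.1, 106 and 104 CPM at 1 h. Their log2 fold changes were -2.09 and -1.66 (edgeR adjusted p = 5.12e-05 and 0.000769). Junb, a subunit of the AP-1 factor, had 69.7, 63.0 and 67.6 CPM at 6 h, against 209, 233 and 210 CPM at 1 h. At 6 h these 3 genes were still above every pre-stress fish, which had 14.9 to 16.7 CPM of ier2, 15.7 to 22.2 CPM of ier2a and 25.2 to 36.9 CPM of junb. The log2 fold change of 6 h over pre-stress was 1.03 for ier2 (edgeR adjusted p = 0.0173), 0.71 for ier2a (adjusted p = 0.133) and 1.10 for junb (adjusted p = 0.029).

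The copies of klf2, a Krüppel-like factor that blood flow induces in mammalian endothelium, were lower. Klf2a had 117, 125 and 97.2 CPM at 6 h, against 295, 239 and 274 CPM at 1 h, with a log2 fold change of -1.25 (edgeR adjusted p = 0.000196). The other, matched to klf2 by a synonym (ENSSSAG00000049310), had 7.27, 10.6 and 6.82 CPM at 6 h, against 34.8, 21.5 and 32.4 CPM at 1 h, with a log2 fold change of -1.84 (edgeR adjusted p = 0.000454). Klf4 had 25.9, 40.5 and 30.0 CPM at 6 h, against 47.8, 52.3 and 61.0 CPM at 1 h (edgeR adjusted p = 0.0185), and fosl2, another AP-1 subunit, 80.9, 79.4 and 83.2 CPM at 6 h, against 136, 117 and 131 CPM at 1 h (edgeR adjusted p = 0.0155). The klf4 call was lost without LAN4 6 h replicate 1 or 3 or LAN4 1 h replicate 2 or 3 (adjusted p 0.0516 to 0.0843), and the fosl2 call without LAN4 6 h replicate 2 or LAN4 1 h replicate 1 or 3 (adjusted p 0.0534 to 0.0666).

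Signalling members were lower as well. Ptgs2b, a cyclooxygenase that starts prostaglandin synthesis, had 14.7, 16.1 and 15.6 CPM at 6 h, against 34.2, 34.0 and 37.2 CPM at 1 h (log2 fold change -1.18, edgeR adjusted p = 0.0163), and its call was kept only without LAN4 1 h replicate 1 or 2 (highest adjusted p = 0.0619). Dusp6, a phosphatase of ERK kinases, plk3 and plk2b, which are polo-like kinases, and pim1, a kinase that favours survival, had log2 fold changes of -0.47, -0.67, -0.57 and -0.68 (edgeR adjusted p = 0.0132, 0.019, 0.0299 and 0.0366). Areg, a ligand of the EGF receptor that is on the list through its RefSeq synonym hbegf, had a log2 fold change of -0.91 (edgeR adjusted p = 0.0414), which missed the threshold with the replicate number as a block (adjusted p = 0.0577). The calls of these 5 genes were each lost when some 1 library was left out. The libraries were LAN4 6 h replicate 1 or LAN4 1 h replicate 3 for dusp6 (adjusted p up to 0.0615), LAN4 6 h replicate 2 or 3 or LAN4 1 h replicate 3 for plk3 (up to 0.101), all but LAN4 6 h replicate 3 and LAN4 1 h replicate 2 for plk2b (up to 0.124), all but LAN4 6 h replicate 1 and LAN4 1 h replicate 3 for pim1 (up to 0.148) and all but LAN4 1 h replicate 1 for areg (up to 0.182).

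The list also held members that did not follow. Ier5l had 54.2, 54.6 and 68.0 CPM at 6 h, against 33.9, 33.2 and 39.9 CPM at 1 h, and was higher with a log2 fold change of 0.73 (edgeR adjusted p = 0.0117), a call lost without LAN4 6 h replicate 3 (adjusted p = 0.0513). Dusp2, a phosphatase of MAP kinases, had 23.1, 14.7 and 20.5 CPM at 6 h, against 12.3, 13.2 and 12.2 CPM at 1 h, and 2.02, 1.97 and 1.76 CPM at pre-stress. The 6 h fish did not overlap the 1 h fish, but the edgeR adjusted p was 0.377. The transcription factor egr3 had 9.58, 9.21 and 10.8 CPM at 6 h, against 28.9, 33.0 and 30.9 CPM at 1 h, and its adjusted p was 0.0723. The 13 members without a call had log2 fold changes of -1.65 to 0.62, with egr3 at the low end and dusp2 at the high end.

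Set against pre-stress fish, the 32 members had their own counts at each time, which share the pre-stress libraries. At 6 h, 6 were higher than at pre-stress and 0 lower, with a median log2 change of 0.24, where 3.78% of all genes tested were called, 2.36% higher and 1.42% lower. At 1 h, 20 were higher and 1 was lower, with a median of 0.87, where 1.14% of all genes were called, 0.963% higher and 0.173% lower. The 1 h fish were on another lane than the pre-stress fish, and the 6 h fish were on the same lane.

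**Figure D2:**
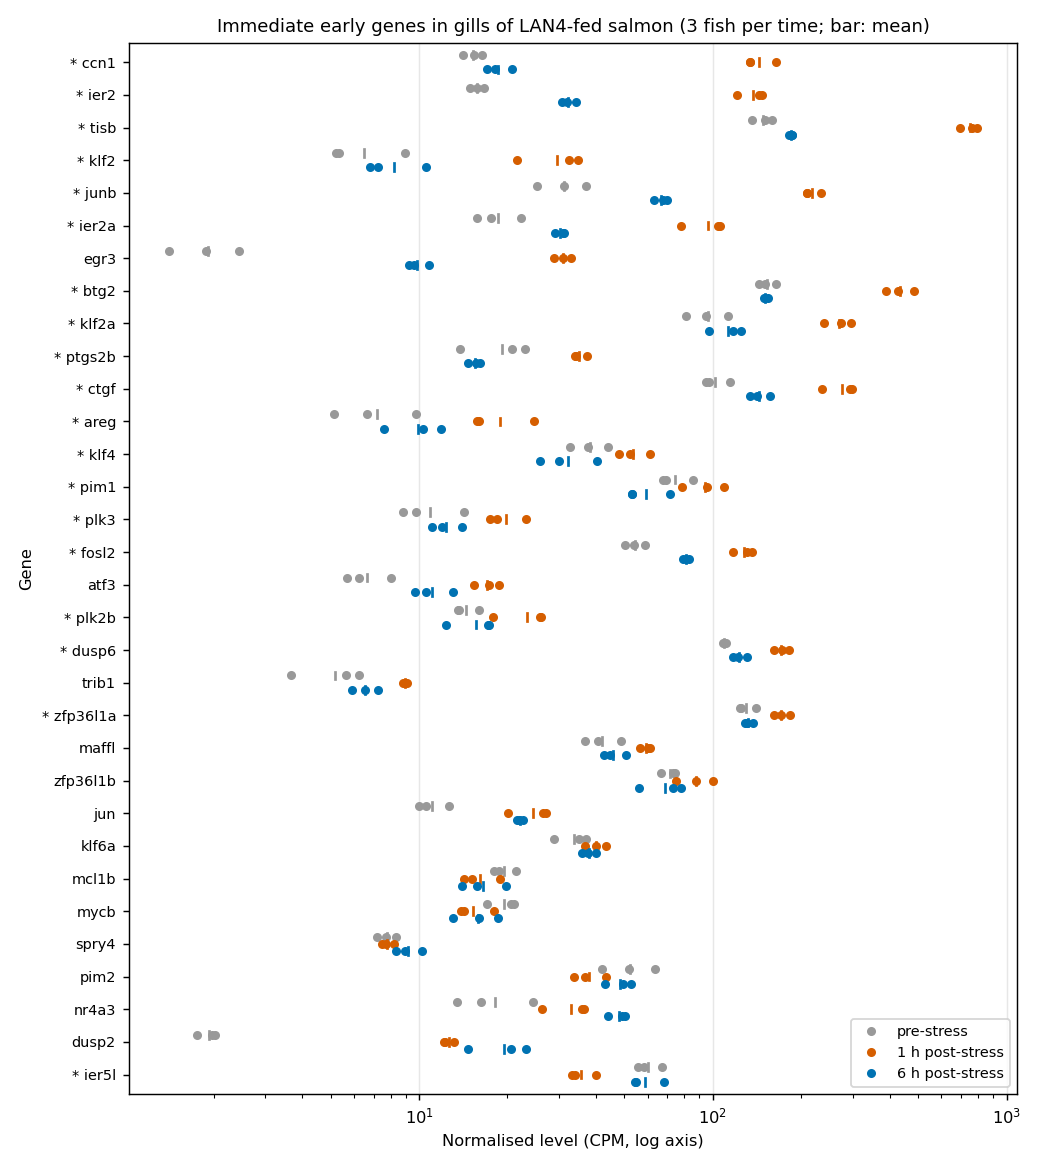
Each row is 1 of the 32 immediate early genes, ordered by the LAN4 change from the largest fall (top) to the largest increase, and each point is the normalised level (CPM, log axis) in the gill of 1 LAN4-fed fish at pre-stress (grey), 1 h (orange) or 6 h (blue) post-stress. Short bars are means of 3 fish and a star marks an adjusted p under 0.05 for 6 h against 1 h, as for ccn1 at the top with 17.1 to 20.7 CPM at 6 h and 134 to 164 CPM at 1 h.

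Among called genes whose fish of 6 h and 1 h did not overlap and whose mean log2 CPM was 1 or more, the largest falls were in genes without a descriptive symbol. LOC106571028 (ENSSSAG00000046644, chromosome 15, bases 19617124 to 19619486) had 10.2, 15.4 and 12.5 CPM at 6 h, against 234, 266 and 297 CPM at 1 h. Its mean at 1 h was 20.9 times that at 6 h by the fitted model, a log2 fold change of -4.38 ± 0.50 (SE; edgeR adjusted p = 0.000236). ENSSSAG00000045856 (chromosome 12, bases 60296516 to 60324429) had 11.3, 9.07 and 8.53 CPM at 6 h, against 130, 137 and 138 CPM at 1 h. LOC106563492 had 3.14, 1.17 and 2.00 CPM at 6 h, against 14.6, 20.7 and 18.9 CPM at 1 h. The log2 fold changes of ENSSSAG00000045856 and LOC106563492 were -3.81 and -3.11 (edgeR adjusted p = 3.34e-08 and 8.64e-05), and for all 3 genes, from the first to the last, the pre-stress fish lay at 5.29 to 5.64, 4.75 to 8.81 and 1.36 to 2.42 CPM.

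Cebpb, a transcription factor that stress and cytokines induce, had 54.1, 40.5 and 52.9 CPM at 6 h, against 150, 156 and 201 CPM at 1 h, with a log2 fold change of -1.78 (edgeR adjusted p = 0.0037). Cd276, an immune checkpoint protein of the B7 family, had 2.15, 1.03 and 1.56 CPM at 6 h, against 8.48, 4.73 and 10.1 CPM at 1 h. Cd37, a tetraspanin of leucocytes, had 1.82, 1.17 and 2.67 CPM at 6 h, against 11, 6.69 and 9.47 CPM at 1 h. Cd276 and cd37 were called at these low levels, with log2 fold changes of -2.30 and -2.26 (edgeR adjusted p = 0.00234 and 0.00297).

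Igfbp-6b2, a binding protein of insulin-like growth factors, had 19, 36.4 and 24.0 CPM at 6 h, against 78.1, 55.1 and 66.7 CPM at 1 h (log2 fold change -1.33, edgeR adjusted p = 0.0244). Spaca6 and tex9 had log2 fold changes of -1.39 and -1.28 (edgeR adjusted p = 0.021 and 0.0211). All 3 calls were lost without some of the fish. The igfbp-6b2 call was kept only without LAN4 6 h replicate 2 or LAN4 1 h replicate 2 (highest adjusted p = 0.0824), the spaca6 call was lost without LAN4 6 h replicate 1 or 2 or LAN4 1 h replicate 1 (highest 0.106), and the tex9 call without LAN4 6 h replicate 2 or LAN4 1 h replicate 3 (highest 0.109).

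Among the genes that were higher at 6 h, LOC106603639 (ENSSSAG00000016597, chromosome 4, bases 62182662 to 62336699) combined a large change with a high level. It had 141, 136 and 163 CPM at 6 h, against 7.99, 8.47 and 7.86 CPM at 1 h, with a log2 fold change of 4.17 ± 0.28 (SE; edgeR adjusted p = 3.7e-07). The pre-stress fish had 5.8, 7.08 and 12.6 CPM, so the 6 h fish stood above all the others. Slc25a25a (ENSSSAG00000075765, chromosome 20, bases 19603407 to 19610249), a carrier that moves ATP-Mg across the inner mitochondrial membrane, had 14.2, 11.5 and 16.6 CPM at 6 h, against 2.04, 1.52 and 0.715 CPM at 1 h. Its mean was 14.1 ± 2.54 CPM at 6 h and 1.42 ± 0.666 CPM at 1 h (SD, n = 3 each), a fitted 9.79-fold increase (edgeR adjusted p = 9.72e-05).

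Hs90a (ENSSSAG00000063834, chromosome 15, bases 52296586 to 52306094), an HSP90-alpha chaperone, had 92.0, 98.6 and 85.5 CPM at 6 h, against 21.5, 20.1 and 21.2 CPM at 1 h and 17.1, 26.6 and 19.9 CPM at pre-stress. The change of 6 h over 1 h was 4.4-fold (log2 fold change 2.14, edgeR adjusted p = 0.000112). No gene of the heat shock list passed with edgeR, beside 7.97% of all genes tested. Of 13 members tested 0 were higher and 0 lower. An unadjusted p under 0.05 was seen in 3, where 5619 of all 23153 genes had one. DESeq2 called 2, where it called 2415 of the 23153. A fit of only the 6 libraries compared called 1, where it called 1213 of 22058 genes. The median log2 change of the list was 0.05, with a range of -0.37 to 1.45. Hs90a and the hsp7c genes were not counted in that list. It holds such chaperones as hsp90aa1 and hspa8, symbols that did not match the names hs90a and hsp7c. The 0 calls of the list therefore leave out chaperone genes under other names. A pair of overlapping gene models on chromosome 20 matched hsp7c, an HSP70 cognate, and they were chosen after their values were seen. ENSSSAG00000067344 had 571, 596 and 617 CPM at 6 h, against 390, 422 and 500 CPM at 1 h (log2 fold change 0.44, edgeR adjusted p = 0.034), and its call was kept only without LAN4 6 h replicate 1 or LAN4 1 h replicate 3 (highest adjusted p = 0.102). ENSSSAG00000104390 had 51, 58 and 10 counts at 6 h, against 0, 3 and 2 counts at 1 h, which is a ratio of 20.6 with a 95% interval of 8.57 to 64.5 that covers counting error only, and the fitted log2 fold change was 4.27 ± 0.74 (SE; edgeR adjusted p = 0.00224).

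Foxo3b, a forkhead factor that fasting and glucocorticoids raise in mammals, had 53.0, 72 and 56.7 CPM at 6 h, against 23.5, 25.2 and 24.2 CPM at 1 h (log2 fold change 1.32, edgeR adjusted p = 0.000602). Sik2b, a salt-inducible kinase that restrains cAMP-driven transcription, had 93.9, 135 and 83.3 CPM at 6 h, against 37.8, 47.6 and 34.0 CPM at 1 h (log2 fold change 1.39, edgeR adjusted p = 9.06e-05). Mot9, a monocarboxylate transporter, had 49.9, 42.1 and 60.8 CPM at 6 h, against 19.5, 17.6 and 17.1 CPM at 1 h (log2 fold change 1.5, edgeR adjusted p = 0.00118). For these 3 genes every 6 h fish was above every pre-stress fish. The rule that named them asked for large increases at 6 h and no overlap with the 1 h fish. That choice favours high values in the same 6 h fish, so the separation from pre-stress is not separate support.

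Bcl6, a transcriptional repressor, had 27.8, 31.0 and 24.8 CPM at 6 h, against 13.8, 13.5 and 10.7 CPM at 1 h (log2 fold change 1.14, edgeR adjusted p = 0.0234), and its call was lost without LAN4 6 h replicate 2 or LAN4 1 h replicate 2 or 3 (highest adjusted p = 0.097). With foxo3b it made 2 of the 7 glucocorticoid response genes tested higher, beside 4.3% of all genes tested. Cebpb was the 1 that was lower, beside 3.67% of all genes. That list is small, and many of its 42 symbols had no gene here.

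Tcima, a small regulator of transcription and immune responses, had 7.85, 9.83 and 7.12 CPM at 6 h, against 3.02, 1.87 and 2.32 CPM at 1 h (log2 fold change 1.77, edgeR adjusted p = 0.0012). Crlf1a, a cytokine receptor-like factor, had 25.5, 45.5 and 37.8 CPM at 6 h, against 11.2, 17.8 and 16.5 CPM at 1 h (log2 fold change 1.26, edgeR adjusted p = 0.00297). Nr2f5, an orphan nuclear receptor, had 5.78, 9.28 and 6.68 CPM at 6 h, against 2.85, 3.75 and 3.04 CPM at 1 h (log2 fold change 1.18, edgeR adjusted p = 0.00451). The rule that named these 3 genes asked for no overlap between the 6 h and the 1 h fish.

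Edn1, which encodes the vasoconstrictor endothelin, and phop1, a phosphatase of phosphocholine and phosphoethanolamine, had log2 fold changes of 1.25 and 1.21 (edgeR adjusted p = 0.0174 and 0.0302). The edn1 call was lost without LAN4 6 h replicate 2 or LAN4 1 h replicate 2 or 3 (highest adjusted p = 0.0908), and the phop1 call was kept only without LAN4 1 h replicate 1 (highest adjusted p = 0.11).

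Under the same limits on level and overlap, a pair of genes with steep fitted increases were nearly silent at 1 h and uneven at 6 h. ENSSSAG00000107075 (chromosome 14, bases 62153773 to 62156030) had 187, 220 and 46 counts at 6 h, against 1, 1 and 3 counts at 1 h, a ratio of 78.3 with a 95% counting interval of 33.3 to 242 that covers counting error only. LOC106599082 had 43.0, 23.0 and 4.6 CPM at 6 h, against 0.978, 0.357 and 0.268 CPM at 1 h (log2 fold change 5.40, edgeR adjusted p = 0.00173), a call lost with only the 6 libraries compared (adjusted p = 0.062). In both genes LAN4 6 h replicate 3 was the lowest of the 6 h fish. Pre-stress fish had 1.08 to 5.19 CPM of the first gene and 1.79 to 6.33 CPM of the second, above every 1 h fish.

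**Figure D3:**
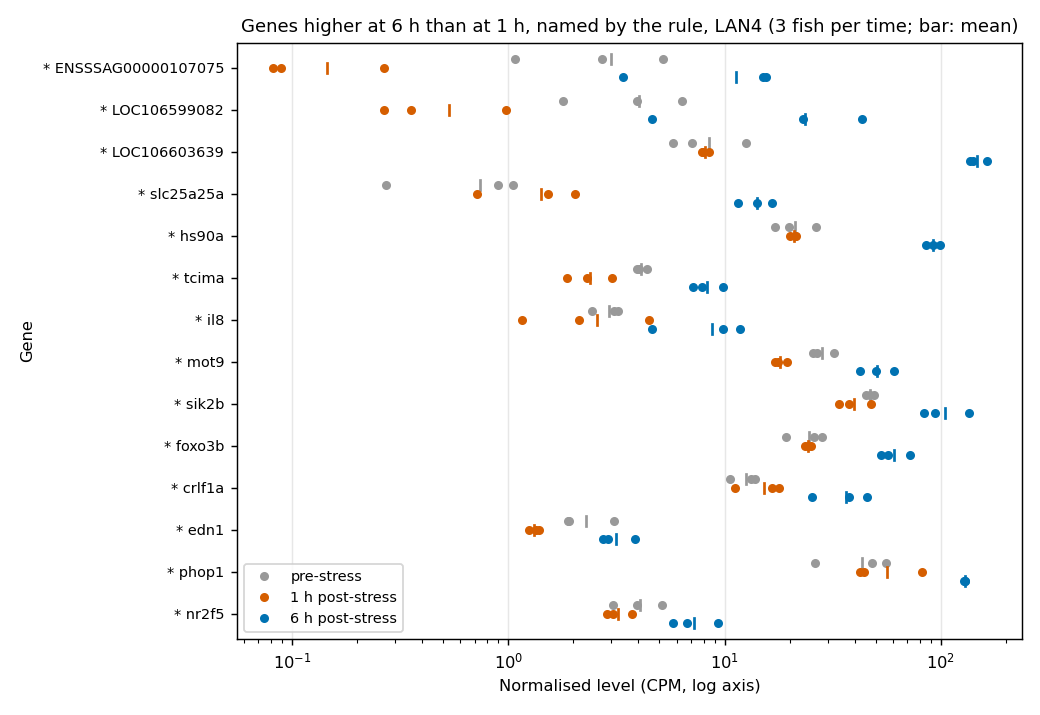
Each row is 1 of 14 genes named for the largest increases at 6 h over 1 h, and each point is the normalised level (CPM, log axis) in 1 LAN4-fed fish at pre-stress (grey), 1 h (orange) or 6 h (blue) post-stress, with bars for the means of 3 fish. LOC106603639, slc25a25a and hs90a have all 6 h fish far to the right of the others, with 85.5 to 98.6 CPM of hs90a at 6 h and 20.1 to 21.5 CPM at 1 h.

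Of 25 hypoxia response genes tested 1 was higher and 2 were lower with edgeR, beside 7.97% of all genes called, with a median log2 change of 0.13. An unadjusted p under 0.05 was seen in 9 of them, where it was seen in 5619 of all 23153 genes. DESeq2 called 3 higher and 3 lower, where it called 1289 and 1126 of all genes. Hif1ab, a copy of the oxygen-sensitive subunit of the hypoxia-inducible factor, had 225, 213 and 194 CPM at 6 h, against 159, 148 and 161 CPM at 1 h (log2 fold change 0.43, edgeR adjusted p = 0.0148), and missed the threshold without LAN4 6 h replicate 2 (adjusted p = 0.0576) or LAN4 1 h replicate 2 (adjusted p = 0.0584). Vegfab, a vascular growth factor that this factor induces, had 39.6, 33.8 and 31.2 CPM at 6 h, against 52.2, 51.5 and 49.7 CPM at 1 h (log2 fold change -0.55, edgeR adjusted p = 0.00801). Egln3, an enzyme that marks the factor for degradation when oxygen is present, had 3.88, 2.27 and 2.3 CPM at 6 h, against 4.48, 5.35 and 4.56 CPM at 1 h (edgeR adjusted p = 0.0462), missed the threshold with the replicate number as a block (adjusted p = 0.0582), and was called only without LAN4 6 h replicate 1 when a library was left out (highest adjusted p = 0.194).

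Cell cycle genes that passed were all lower, 4 of 29 tested, beside 3.67% of all genes lower. Higher members were 0 (0 also at an unadjusted p under 0.05 and by DESeq2), and the median log2 change of the list was -0.18. Mcm2, mcm5 and mcm6 are subunits of the helicase that opens DNA for replication, and rrm2 is the small subunit of ribonucleotide reductase. Mcm2 had 61.4, 51.0 and 39.9 CPM at 6 h, against 72.4, 70.9 and 86.4 CPM at 1 h, and rrm2 had 46.2, 31.3 and 32.0 CPM at 6 h, against 58.8, 56.2 and 51.7 CPM at 1 h. The log2 fold changes of mcm2, mcm5, rrm2 and mcm6 were -0.59, -0.62, -0.61 and -0.45 (edgeR adjusted p = 0.0101, 0.0198, 0.021 and 0.0406). All 4 calls were lost without some libraries, and with only the 6 libraries compared 0 of 29 were called. Mcm2 was lost without LAN4 1 h replicate 3 (adjusted p = 0.0572), mcm5 and mcm6 without any of LAN4 6 h replicates 2 and 3 and LAN4 1 h replicates 1 and 3 (highest 0.111 and 0.184), and rrm2 without any of LAN4 6 h replicates 2 and 3 and LAN4 1 h replicates 1 and 2 (highest 0.113).

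Inflammation genes were called in both directions, 2 higher and 2 lower of 19 tested, beside 4.3% and 3.67% of all genes. The median log2 change of the list was -0.01. Il8, a chemokine that attracts neutrophils, had 9.83, 4.6 and 11.8 CPM at 6 h, against 2.12, 4.46 and 1.16 CPM at 1 h (log2 fold change 1.76, edgeR adjusted p = 0.0125). The lowest 6 h fish barely exceeded the highest 1 h fish, and the call was lost without LAN4 1 h replicate 3 (adjusted p = 0.051). Ptges, a prostaglandin E synthase, had 35.1, 41.1 and 51.1 CPM at 6 h, against 23.0, 26.8 and 21.9 CPM at 1 h (log2 fold change 0.83, edgeR adjusted p = 0.00549). The lower members were cebpb and ptgs2b. The cyclooxygenase ptgs2b was lower and the synthase ptges, which acts after it, was higher.

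In the unfolded protein and integrated stress response list, 1 of 20 members was higher and 2 were lower, beside 4.3% and 3.67% of all genes. The median log2 change of the list was -0.04. Chac1, which degrades glutathione and is induced by the factor ATF4, had 66.8, 73.4 and 85.3 CPM at 6 h, against 147, 151 and 193 CPM at 1 h (log2 fold change -1.12, edgeR adjusted p = 9.41e-05). Its pre-stress fish had 62.9 to 74.6 CPM, a range that the 6 h fish overlapped. The other lower member was cebpb. Vldlr, a lipoprotein receptor, had a log2 fold change of 0.45 (edgeR adjusted p = 0.0426) and lost its call in each of the 6 fits without 1 LAN4 library (highest adjusted p = 0.138).

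In the circadian clock list, edgeR called 1 member of 12, beside 7.97% of all genes. It was rorca, a nuclear receptor that drives clock genes. DESeq2 called 2 higher and 1 lower, where it called 1289 and 1126 of all 23153 genes. An unadjusted p under 0.05 was seen in 5 of the 12, where 5619 of all genes had one. Rorca had 18.6, 20.3 and 19.7 CPM at 6 h, against 35.8, 36.0 and 34.0 CPM at 1 h, a tight separation with a log2 fold change of -0.85 ± 0.09 (SE; edgeR adjusted p = 5.12e-05). The pre-stress fish had 37.2, 37.2 and 34.2 CPM, like those of 1 h.

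Ion and acid-base transport genes had 2 higher and 0 lower members of 22 with edgeR, beside 4.3% and 3.67% of all genes. Their median log2 change was 0.09. DESeq2 called 1 lower, where it called 1126 of all 23153 genes lower. At an unadjusted p under 0.05, 2 were lower, where 5619 of all genes had such a p in either direction. Foxi3a, a forkhead factor that specifies ionocytes in zebrafish, had 166, 194 and 189 CPM at 6 h, against 97.2, 100 and 69.4 CPM at 1 h (log2 fold change 1.04, edgeR adjusted p = 0.00362). Atp6v1ab, a catalytic subunit of the proton pump that acidifies vesicles and drives ion uptake in gills, had 20.2, 21.0 and 21.8 CPM at 6 h, against 12.7, 12.3 and 11.5 CPM at 1 h (log2 fold change 0.79, edgeR adjusted p = 0.00567). The summed level of the 5 ionocyte markers was 1400 to 1570 CPM at 6 h and 991 to 1460 CPM at 1 h, and its part in these values was not tested.

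The remaining lists had few calls, beside 4.3% higher and 3.67% lower over all genes tested. Antioxidant and glutathione genes had 1 higher member, keap1a, the sensor that restrains the factor Nrf2, and 1 lower member, chac1, of 21. Ribosome biogenesis genes had 1 higher member, tsr1, and 1 lower, utp18, of 36. Interferon response genes had psme1 lower of 14, oxidative phosphorylation genes ndufb5 lower of 16, and sterol and fatty acid synthesis genes elovl6, an elongase of fatty acids, lower of 17. The list symbol elovl7 did not match a gene named elov7, which was chosen after its values were seen. Elov7 was higher, with a log2 fold change of 1.03 (edgeR adjusted p = 0.000886). Its call was kept when any 1 LAN4 library of 6 h or 1 h was left out (highest adjusted p = 0.00645). Collagens and other matrix genes had 0 higher and 2 lower members of 30 with edgeR, which were ccn1 and ctgf and not collagens, with a median log2 change of -0.02. DESeq2 called 1 of them higher, and 2 were higher at an unadjusted p under 0.05. Proteasome genes had 0 calls of 8 with edgeR and 0 with DESeq2, and 3 had an unadjusted p under 0.05. Over all 23153 genes, DESeq2 called 1289 higher and 1126 lower, and 5619 had an unadjusted p under 0.05.

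The calls of keap1a, psme1, tsr1, utp18, ndufb5 and elovl6 were each lost without some libraries. Those of chac1, ccn1 and ctgf were kept when any 1 LAN4 library of 6 h or 1 h was left out. Keap1a had a log2 fold change of 0.67 (edgeR adjusted p = 0.0258), and psme1 one of -0.45 (adjusted p = 0.0173). Tsr1, utp18, ndufb5 and elovl6 had log2 fold changes of 0.43, -0.37, -0.53 and -1.17 (edgeR adjusted p = 0.0208, 0.023, 0.0257 and 0.0227). Keap1a was lost without LAN4 6 h replicate 1 or 2 or LAN4 1 h replicate 2 or 3 (highest adjusted p = 0.102), psme1 without LAN4 6 h replicate 1 or 2 or LAN4 1 h replicate 3 (highest 0.0767), and tsr1 without LAN4 6 h replicate 3 or LAN4 1 h replicate 2 (highest 0.0843). Utp18 was kept only without LAN4 1 h replicate 1 (highest 0.0997), ndufb5 only without LAN4 6 h replicate 3 or LAN4 1 h replicate 1 (highest 0.114), and elovl6 only without LAN4 6 h replicate 1 or LAN4 1 h replicate 1 (highest 0.124).

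**Figure D4:**
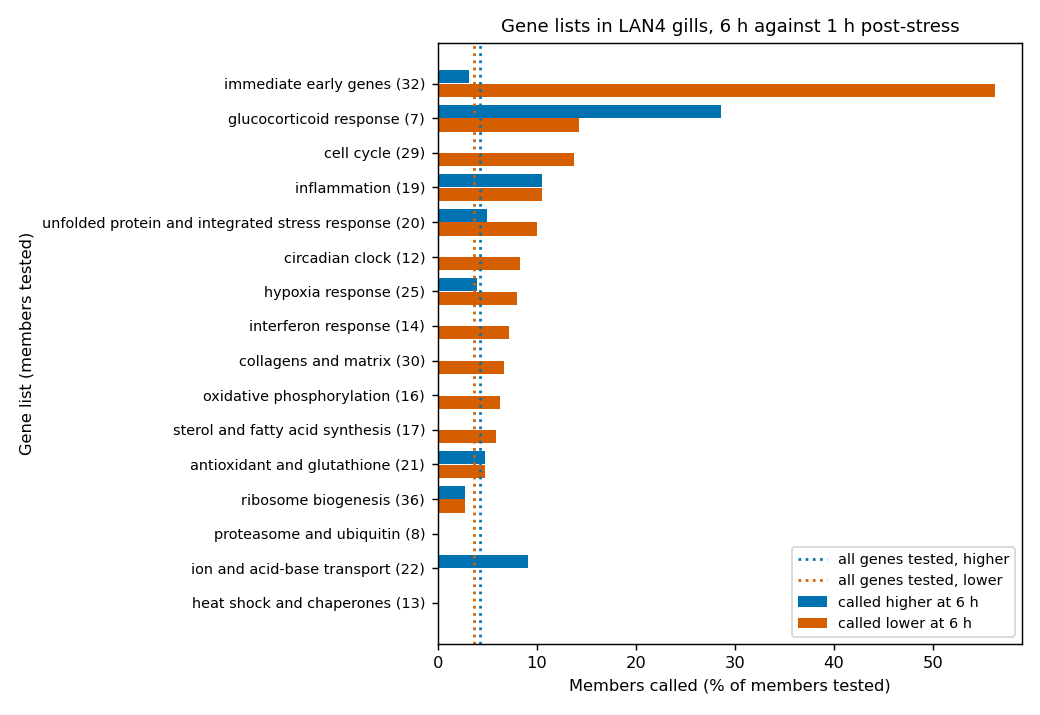
Bars give the share of tested members of each gene list called higher (blue) or lower (orange) at 6 h than at 1 h in LAN4 gills, in percent, with the number tested in brackets and dotted lines for the shares over all genes tested (4.3% higher, 3.67% lower). The immediate early genes reach 56.2% lower, and no other list exceeds 14.3% lower.

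Each cell type marker list had 0 to 2 members called with edgeR of 3 to 15 tested, beside 7.97% of all genes, and some summed levels shifted. Lists this short do not show whether their share differs from that of all genes. Over all 23153 genes, DESeq2 called 2415, and 5619 had an unadjusted p under 0.05. All 5 ionocyte markers of the gill were detected. Erythrocyte markers summed to 2160 to 2700 CPM at 6 h and 3050 to 3100 CPM at 1 h, without overlap, and to 2600 to 2930 CPM at pre-stress. In CD fish their sums went the other way, with 2670 to 3560 CPM at 6 h and 2410 to 2700 CPM at 1 h. Tfr1a was the 1 of 13 called in LAN4 and was lower, a call kept only without LAN4 6 h replicate 1 or LAN4 1 h replicate 3 (highest adjusted p = 0.155). Skeletal muscle markers summed to 723 to 972 CPM at 6 h and 486 to 774 CPM at 1 h, with 0 of 14 called by edgeR or DESeq2, 1 at an unadjusted p under 0.05 and a median log2 fold change of 0.72. Myeloid markers summed to 1500 to 2090 CPM at 6 h and 1250 to 1720 CPM at 1 h, with csf3r higher of 13, a call kept only without LAN4 6 h replicate 1 or 2 (highest adjusted p = 0.148). Cartilage and bone markers summed to 9410 to 10200 CPM at 6 h and 9890 to 13800 CPM at 1 h, with 0 of 9 called by edgeR or DESeq2 and 1 at an unadjusted p under 0.05. Of the 18 muscle genes matched 1 was at 0 in all 6 LAN4 libraries, and 0 were in the other marker lists. The part of these shifts in the gene results was not tested. The endothelial list had 2 lower members of 15, which were klf2a and klf2, with a median of 0.12. Mucous, B cell and T and NK cell lists had 1 called member each, and ionocyte markers 1 of 5, foxi3a.

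Changes between 1 h and 6 h in CD gills, which share no fish with LAN4 but the same lanes, were called for 2733 genes (11.8%), 1269 higher (5.48%) and 1464 lower (6.32%). That count was 1820, 1746, 1690 and 1057 without CD 6 h replicate 1, CD 6 h replicate 2, CD 1 h replicate 1 and CD 1 h replicate 2, in that order. Of the 1846 LAN4 calls, 1611 (87.3%) had the same sign in CD, against 59.4% over all genes tested. Called in both diets with the same sign were 605 genes, 32.8% of the LAN4 calls and 22.1% of the CD calls, and 6 genes were called with opposite signs. Across genes, which are not independent replicates, the log2 fold changes of the diets had a Pearson r of 0.25 over all genes and 0.85 over the LAN4 calls. The lanes are the same in both diets, so a lane difference that acts alike on all libraries would add to these shares, and that was not tested.

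**Figure D5:**
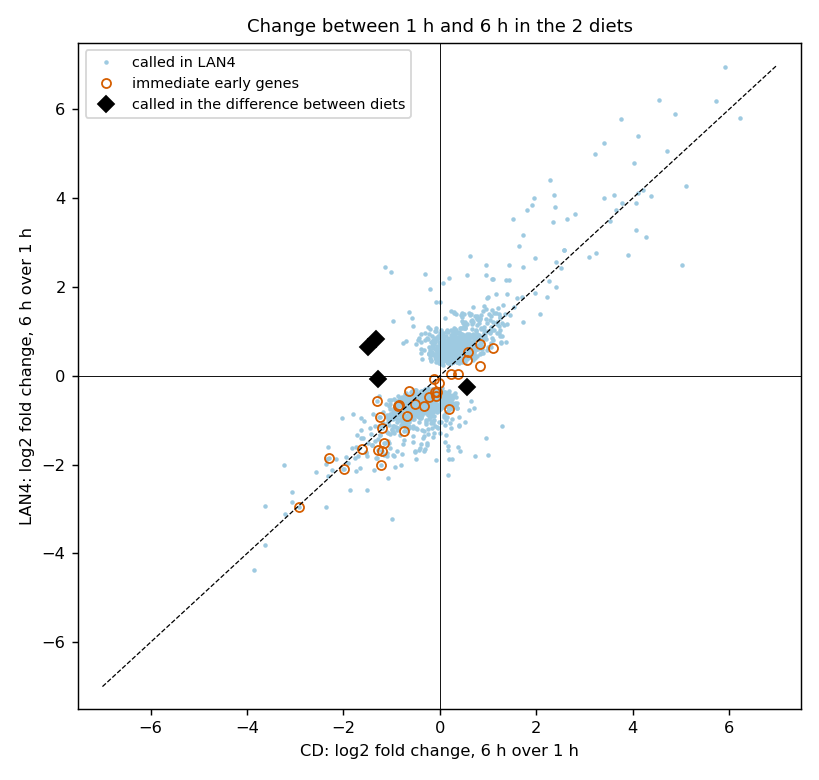
Each light blue point is 1 of the 1846 genes called in LAN4, with its log2 fold change of 6 h over 1 h in LAN4 on the vertical axis and in CD on the horizontal axis. The dashed line marks equal change, and 87.3% of the called genes have the same sign in both diets. Orange rings mark the 32 immediate early genes, and black diamonds mark the 4 genes whose change differed between the diets.

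The immediate early genes were mostly lower in CD as well. In CD 14 of the 32 were lower and 3 higher, beside 6.32% and 5.48% of all genes. The median log2 change was -0.58, and 17 of the 18 that fell in LAN4 had a negative change in CD. Klf4 was the exception, with a log2 fold change of 0.18 in CD. With edgeR 0 of the 32 passed the test of the difference between the diets. An unadjusted p under 0.05 was seen in 6 of the 32, where 3919 of all 23153 genes had one. DESeq2 called 2 of the 32, where it called 575 of all genes. The lowest adjusted p was 0.0863, for tisb, which fell by 2.02 on the log2 scale in LAN4 and by 1.23 in CD, a difference of -0.79 with a 95% interval of -1.17 to -0.41. The differences of the 32 ran from -0.92 to 0.73. A p that misses the threshold does not show equal changes.

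The difference between the diets' changes passed for 4 of 23153 genes (0.0173%) with edgeR, 3 positive (0.013%) and 1 negative (0.00432%), where 3919 had an unadjusted p under 0.05 and DESeq2 called 575. ENSSSAG00000092807 (chromosome 9, bases 148962788 to 149120731) was higher at 6 h in LAN4 and lower in CD. It had 8.76, 11.9 and 8.98 CPM at 6 h and 6.77, 4.28 and 5.72 CPM at 1 h in LAN4, and 5.13, 3.54 and 4.44 CPM at 6 h and 8.76, 11.9 and 12.0 CPM at 1 h in CD. The log2 difference, LAN4 minus CD, was 2.14 (edgeR adjusted p = 0.0211). The LAN4 change alone had a log2 fold change of 0.82 (edgeR adjusted p = 0.0242). Its call was lost without LAN4 6 h replicate 2 or LAN4 1 h replicate 2 or 3 (highest adjusted p = 0.126). LOC106565529 had 14.9, 15.3 and 14 CPM at 6 h and 16.5, 13.7 and 15.9 CPM at 1 h in LAN4, so the times overlapped, and 10.0, 8.73 and 9.78 CPM at 6 h and 21.8, 22.9 and 24.6 CPM at 1 h in CD. Its log2 difference was 1.21 (edgeR adjusted p = 0.0211).

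LOC106591130 and LOC106604293 had log2 differences of 2.15 and -0.81 (edgeR adjusted p = 0.0413 and 0.0353). In a fit blocked on the replicate number 0 genes passed, and these 4 had adjusted p of 0.0674 to 0.0792. The count of 4 also fell to 0 without LAN4 6 h replicate 2 or 3, LAN4 1 h replicate 3, CD 6 h replicate 2 or CD 1 h replicate 2, and to 1 without LAN4 1 h replicate 2. It was 16 without LAN4 6 h replicate 1, 20 without LAN4 1 h replicate 1, 101 without CD 6 h replicate 3 and 9 without CD 1 h replicate 3. Collagens and matrix genes show how lists compared. In CD 16 of 30 were lower, beside 6.32% of all genes, with a median of -0.63 on the log2 scale. In LAN4 2 were lower, beside 3.67% of all genes, with a median of -0.02. With edgeR 0 passed the test of the difference, beside 0.0173% of all genes. An unadjusted p under 0.05 for it was seen in 11, where 3919 of all 23153 genes had one. DESeq2 called 5, where it called 575 of all genes.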

How the data were processed

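The authors deposited, for each of the 18 gill libraries, raw counts of fragments per gene, made with featureCounts of Subread 1.5.1, per the submitters' processing notes, after alignment to the salmon assembly Ssal_v3.1 (TruSeq stranded libraries). Counting was reverse-stranded, without fragments of several places or of overlapping genes. The counts were not normalised, and 0 pairs of libraries were identical. Genes on 16 of 29 chromosomes were used. All 18 libraries entered a model with 1 mean per group in edgeR 4.0.16 (R 4.3.3), with filterByExpr, TMM, robust glmQLFit and glmQLFTest, and Benjamini-Hochberg adjustment over all genes tested. CPM are counts scaled to a common normalised library size, and log2 CPM used a prior count of 2. DESeq2 1.42.0 was an alternative, beside other scalings, filters, a fold test at 1.5, a replicate block and leaving out each library. The script was tested on simulated data. Errors are between fish.

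Labels give replicate numbers 1 to 3 in each group. The deviations of the same-numbered LAN4 6 h and 1 h fish from their group means, across genes, correlated at 0.20, 0.15 and 0.19, and in CD at 0.19, -0.09 and 0.07. Differently numbered fish correlated at -0.134 to -0.053 in LAN4 and at -0.264 to 0.184 in CD. The labels do not say what the number marks, and the main model did not pair the fish by it. A fit with the number as a block was an alternative, and blocked values stand beside results that they change.

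Names came from RefSeq, for 25266 genes, where a gene and a RefSeq entry covered each other by 0.5 or more. List symbols were matched by symbol or synonym. Genes were named by a rule. It took the 12 largest increases and decreases with a symbol and the 3 largest of any name. These had to have an adjusted p under 0.05, log2 CPM averaging 1 or more, and 3 fish of 6 h all on one side of the 3 of 1 h. Without the limits on level and overlap, it also took up to 4 called members of each list and direction. Up to 5 genes called in the diet difference were taken, whether or not they were called in LAN4. The other immediate early genes and markers appear as list members, and genes chosen otherwise are marked. Both members and lists were chosen with earlier results of these data known. Promoter sequences were not used here, and 1 gene that the rule took is not reported here.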

Additional observations from a re-analysis of the deposited data

Results flagged for a closer look

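The change between 1 h and 6 h differed between LAN4 and CD, by a test of the difference itself, for 4 genes without a descriptive symbol. The log2 difference, LAN4 minus CD, was 2.14 ± 0.30 for ENSSSAG00000092807, 1.21 ± 0.17 for LOC106565529, -0.81 ± 0.12 for LOC106604293 and 2.15 ± 0.34 for LOC106591130 (SE; edgeR adjusted p = 0.0211, 0.0211, 0.0353 and 0.0413). In LOC106604293 the LAN4 fish had 37.7, 43.4 and 44.4 CPM at 6 h and 48.8, 49.4 and 51.1 CPM at 1 h, while the CD fish had 51.3, 53.2 and 48.8 CPM at 6 h and 33.3, 32.7 and 38.3 CPM at 1 h. In LOC106591130 they had 8.59, 14 and 10.6 CPM at 6 h and 7.5, 6.96 and 6.61 CPM at 1 h in LAN4, and 5.34, 4.55 and 5.41 CPM at 6 h and 17.8, 14.3 and 11.2 CPM at 1 h in CD. Gene length and change also moved in opposite directions in the diets, with rank correlations across genes of 0.13 in LAN4, -0.16 in CD and 0.25 for the difference. All 4 missed the threshold with the replicate number as a block (adjusted p 0.0674 to 0.0792) and with only the libraries compared (0.0505 to 0.0723). With the length trend removed, these 4 genes kept an adjusted p of 0.0245 to 0.0352. Groups of 3 fish were not searched for outlying samples.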

How the results depend on the processing

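With only the libraries compared, 1213 genes were called in LAN4 (622 higher, 591 lower), 1456 in CD (643 and 813) and 0 in the difference. A test against a fold of 1.5 left 106 in LAN4 (57 and 49), 105 in CD (36 and 69), 0 in the difference and 8 immediate early genes lower. For the difference, DESeq2 called 575 genes, no filter 14, the replicate block 0 and removal of the length trend, added after the data were seen, 8, against 4 reported. The cause was not tested. Leaving out 1 library gave 646 to 1423 calls in LAN4, 1057 to 2470 in CD, 0 to 101 in the difference and 10 to 14 immediate early genes lower. The replicate block left 1704 LAN4 calls and changed no other call than those given beside the results among the genes named by the rule. Under other scalings, filters, DESeq2 and the block, the counts of both diets and of the immediate early genes stayed within 1.5 times those reported. Of 54 genes named by the rule that were called, 31 were called without each of the 6 LAN4 libraries and 0 changed sign in any alternative. When the length trend was removed 1 of them was lost, egln3 (edgeR adjusted p = 0.0529). The call of pim1, described as a list member, was also lost then (adjusted p = 0.0676). The promoter motif search planned was not run. Lane cannot be told apart from sampling time, and the 26774 genes elsewhere were not analysed here.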

Other observations

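Genes outside the lists also changed between 1 h and 6 h in LAN4 gills, and the genes in this paragraph were chosen after their values were seen. Egfra, an EGF receptor, had 31.8, 34.5 and 40.9 CPM at 6 h, against 18, 17.8 and 16 CPM at 1 h (log2 fold change 1.05, edgeR adjusted p = 0.000602). Xpo1a, a nuclear export receptor, had 55.9, 50.8 and 52.9 CPM at 6 h, against 32.8, 30.9 and 29.5 CPM at 1 h (log2 fold change 0.78, edgeR adjusted p = 0.000307), and nupr1b, a stress-induced nuclear protein, had 128, 137 and 152 CPM at 6 h, against 73.9, 80.3 and 87.9 CPM at 1 h (log2 fold change 0.78, edgeR adjusted p = 0.00145). Ulk1a, a kinase that starts autophagy, had 89.3, 103 and 107 CPM at 6 h, against 61.0, 75.7 and 56.8 CPM at 1 h (log2 fold change 0.63, edgeR adjusted p = 0.0043). In these 4 genes no 6 h fish overlapped a 1 h fish, which was so in 98.8% of all called genes and is no added support. Each call was kept when any 1 of the 6 LAN4 libraries of 6 h and 1 h was left out.

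Il4ra, an interleukin receptor chain, had 26.1, 21.8 and 18 CPM at 6 h, against 45.6, 40.9 and 33.7 CPM at 1 h (log2 fold change -0.87, edgeR adjusted p = 0.00291). Ifngr1b, an interferon gamma receptor chain, had 13.3, 11.3 and 13.6 CPM at 6 h, against 20.9, 21.2 and 22.8 CPM at 1 h (log2 fold change -0.76, edgeR adjusted p = 0.00475). Ets2, a transcription factor downstream of ERK, and smad7, an inhibitor of TGF-beta signalling, had log2 fold changes of -0.74 and -0.62 (edgeR adjusted p = 0.000856 and 0.0032). F3a, a tissue factor that starts coagulation, had 544, 541 and 492 CPM at 6 h, against 746, 868 and 915 CPM at 1 h (log2 fold change -0.68, edgeR adjusted p = 0.00845). These 5 genes were also chosen after their values were seen, and their calls were kept when any 1 of the 6 LAN4 libraries of 6 h and 1 h was left out.

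Jag2b, a Notch ligand chosen after its values were seen like dnah3, had 19.3, 22.6 and 20.9 CPM at 6 h and 13.3, 12.0 and 9.56 CPM at 1 h in LAN4, a log2 fold change of 0.85, and one of -0.26 in CD. The difference between the diets missed the threshold (edgeR adjusted p = 0.0739), as it did for dnah3, a dynein heavy chain of cilia (edgeR adjusted p of the difference = 0.0739). The log2 fold changes of dnah3 were 2.45 ± 0.50 (SE) in LAN4 and -1.14 in CD. Dnah3 had an adjusted p for the LAN4 change in only 13 of 15 alternative fits, and DESeq2 gave none.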
